A study of Mus musculus with 8 samples.

Results

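The brush border is the layer of microvilli on the gut-facing side of enterocytes, the absorptive cells of the small intestine. Enzymes anchored there finish the digestion of sugars and peptides, and carriers beside them take up the products. These genes are switched on as enterocytes leave the crypt, and many are expressed unevenly along the length of the gut. The 10 genes considered were the disaccharidases Sis, Lct and Treh, the meprin subunits Mep1a and Mep1b, the peptidases Anpep, Dpp4 and Enpep, the alkaline phosphatase Akp3 and the sodium-glucose transporter Slc5a1. They were chosen as a list of genes, and all probe sets annotated to 1 of them were used. This gave 11 probe sets for 9 genes, out of 22690 probe sets and 12394 named genes on the array, with a pair each for Dpp4 and Slc5a1. Sis, which encodes sucrase-isomaltase, was not analysed here.

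Small intestine was taken from female C57/Black6 mice, 6 weeks of age, that had been injected intraperitoneally each day for 5 days. Vehicle mice received dimethyl sulfoxide (DMSO), dexamethasone mice the synthetic glucocorticoid at 15 mg/kg, DBZ mice 10 umol/kg of DBZ, which inhibits gamma-secretase, and combination mice both agents at these doses. Gamma-secretase releases the active part of Notch receptors, and the study asked how dexamethasone and DBZ interact in the gut. The labels list 2 samples for each of the 4 groups, but the DBZ columns held the same value in 22684 probe sets; in the other 6 one of them was at 0. They were counted as 1 array, which left 7 distinct arrays, with 1 for DBZ and 2 for each other group. Nothing beyond the replicate numbers and the stated number of mice says how replicates were made, so the p-values measure the spread between these arrays. The labels do not give the segment of the small intestine.

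All arrays were brought to 1 trimmed mean of 250, since the vehicle arrays had been deposited at a trimmed mean of 500 and the treated arrays at 250. A signal is the scaled intensity of a probe set, which can be compared between arrays but not between probe sets. A change is a difference of log2(signal + 12.3), and a change was called when its adjusted p was under 0.05 in a limma fit of all 13638 probe sets that passed a filter on mean signal. All 11 member probe sets passed that filter. Akp3 passed only through the vehicle arrays.

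Enterocyte markers were present in all arrays but not at 1 level. Villin (Vil1) had signals from 5603 to 7813, and the 11 enterocyte markers summed to 95919 to 98350 with vehicle, 63644 to 71964 with dexamethasone, 87349 with DBZ and 81117 to 111926 with the combination. Against vehicle, 4 of the 11 fell with dexamethasone, 3 with DBZ and 2 with the combination, and 0 rose. Of all tested probe sets, 4.82%, 4.6% and 3.06% fell and 7.22%, 3.74% and 4.38% rose in the same order. The vehicle arrays stood apart in position markers. The summed signal of 10 proximal markers was 21876 to 21941 with vehicle, 5769 to 5916 with dexamethasone, 7292 with DBZ and 7672 to 8646 with the combination. The summed signal of 10 ileal markers was 13444 to 14953, 21244 to 32269, 39614 and 18953 to 25744 in the same order, and the ileal Fabp6 was near 0 in both vehicle arrays (0.640 and 1.22). The 8 smooth muscle markers summed to 8554 to 12114 with vehicle and 18367 to 27715 in the treated arrays. Dexamethasone replicate 1 also held the colon enzyme Car1 at 7427, against 1.44 to 52.4 elsewhere, and the DBZ array had the highest 3' to 5' ratios of Gapdh (1.80) and beta-actin (2.17). In bulk tissue, fewer cells of a type and less RNA per cell cannot be told apart.

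Meprin alpha rose in every treated group against vehicle, and trehalase fell with dexamethasone. The alkaline phosphatase Akp3 had lower signals in all treated arrays, but only its dexamethasone call held without the filter on mean signal. No other member passed the test in any comparison. The promoters of these 3 genes are shown beside that of lactase, which did not pass the test. They are the 250 bases before each gene's start from RefSeq (GRCm38.p6), written 5′ to 3′ on the gene's own strand. Capitals mark matches to GATAA, the core bound by GATA factors, or TTTAC, a core bound by CDX factors, on either strand.
Mep1a, chr17:43502774-43503023, minus strand: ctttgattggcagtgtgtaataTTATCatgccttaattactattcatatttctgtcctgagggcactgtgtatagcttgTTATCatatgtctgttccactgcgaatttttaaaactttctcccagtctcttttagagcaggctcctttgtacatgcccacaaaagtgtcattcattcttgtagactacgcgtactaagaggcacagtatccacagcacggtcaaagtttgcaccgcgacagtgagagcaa
Akp3, chr1:87124704-87124953, plus strand: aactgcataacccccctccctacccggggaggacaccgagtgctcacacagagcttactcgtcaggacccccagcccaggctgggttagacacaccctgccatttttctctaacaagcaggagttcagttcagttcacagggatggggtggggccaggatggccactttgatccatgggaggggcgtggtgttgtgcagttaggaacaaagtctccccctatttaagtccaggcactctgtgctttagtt
Treh, chr9:44672983-44673232, plus strand: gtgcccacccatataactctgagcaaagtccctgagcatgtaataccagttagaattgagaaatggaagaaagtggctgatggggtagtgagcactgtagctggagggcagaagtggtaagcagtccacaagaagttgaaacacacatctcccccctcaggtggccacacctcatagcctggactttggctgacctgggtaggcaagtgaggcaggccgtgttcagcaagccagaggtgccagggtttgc
Lct, chr1:128328319-128328568, minus strand: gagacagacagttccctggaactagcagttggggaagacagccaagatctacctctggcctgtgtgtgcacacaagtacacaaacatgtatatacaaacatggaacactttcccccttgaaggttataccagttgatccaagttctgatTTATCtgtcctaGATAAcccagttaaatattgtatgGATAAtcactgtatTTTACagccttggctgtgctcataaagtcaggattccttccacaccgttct

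The Lct window held GATAA 3 times, with last bases 97, 85 and 61 before the start, and TTTAC once. Mep1a held GATAA at 2 places, and neither motif was in the Akp3 or Treh window. Of 32851 windows of this length, 22.6% held GATAA and 28.3% held TTTAC. Of the 9 members with a window in the table, GATAA was in 4 (Lct, Mep1a, Dpp4 and Enpep) and TTTAC in 2 (Lct and Slc5a1). The palindrome bound by the glucocorticoid receptor was in 0 of the 9 and in 0.387% of all windows. The half-site GTTAAT of HNF1 factors was in 1, Sis, and in 6.43% of all. These are matches of letters, not measured sites.

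**Figure D1:**
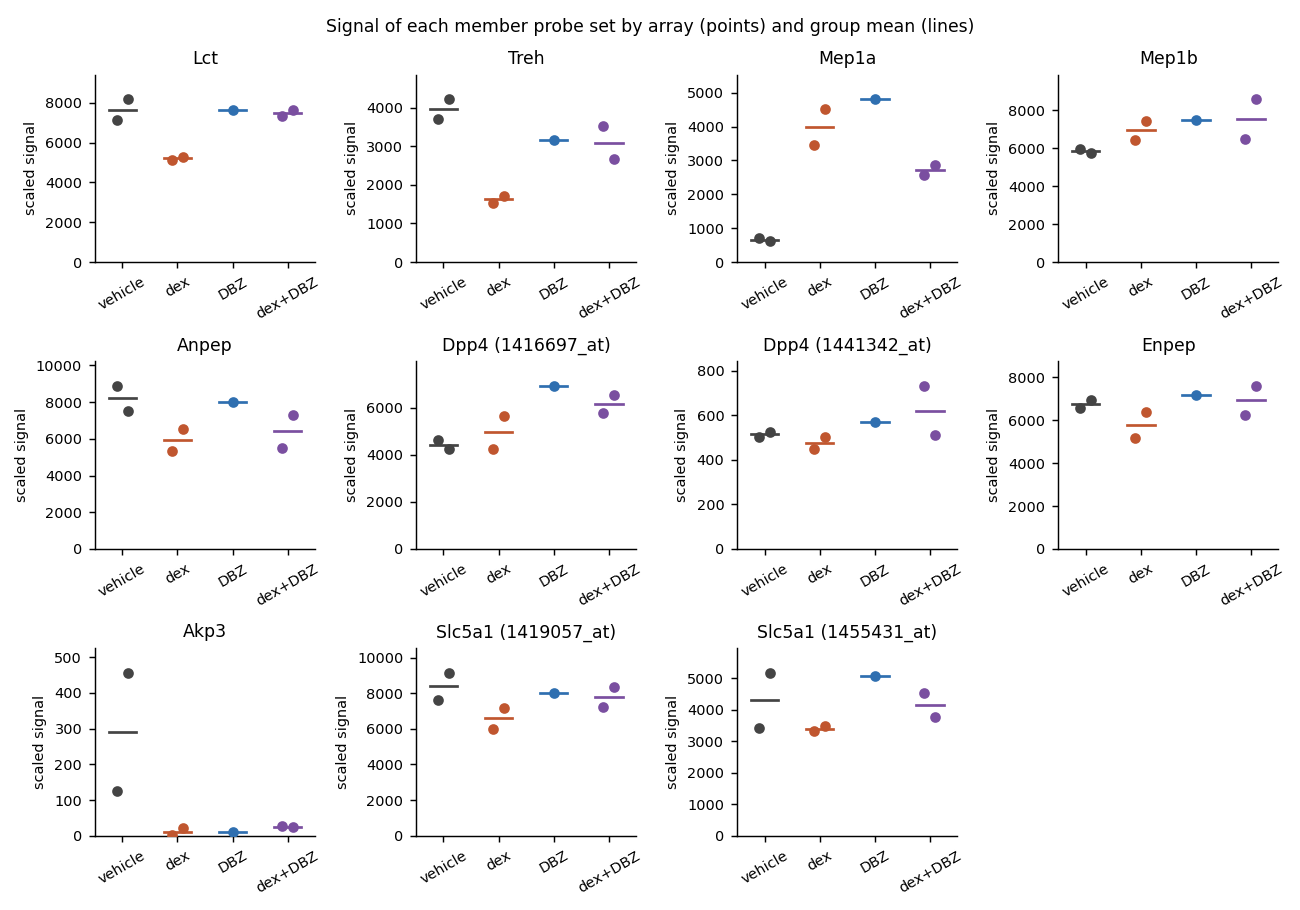
Scaled signal (y axis, linear from 0) of each of the 11 member probe sets in the 7 arrays, by group (x axis; dex is dexamethasone and dex+DBZ the combination). Points are arrays and horizontal lines group means; Mep1a lies at 608 to 699 with vehicle and at 2579 to 4812 in the treated arrays, while Akp3 lies at 124 and 457 with vehicle and at or below 27.0 in the treated arrays.

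Trehalase and lactase, the disaccharidases measured, were lowest in the dexamethasone arrays. The enterocyte markers as a list were also lower there: 10 of 11 lay below vehicle, with a median change of -0.46, and 11 of 11 were higher in the combination than with dexamethasone. Of 9 tested genes of microvillus structure, with Vil1 on both lists, 4 lay above vehicle with dexamethasone and 5 below (median -0.03). All 9 were higher in the combination than with dexamethasone. All 7 fibroblast markers rose with dexamethasone, and 5 rose with DBZ and 5 with the combination. In these comparisons 7.22%, 3.74% and 4.38% of all tested probe sets rose. The part of enterocytes and fibroblasts in the results for Treh and Lct was not tested. Treh, which splits the sugar trehalose into glucose, had signals of 3693 and 4222 with vehicle, 1531 and 1715 with dexamethasone, 3159 with DBZ, and 3519 and 2662 in the combination arrays. The dexamethasone arrays lay below all others, and the DBZ and combination arrays lay between them and vehicle without touching either. With dexamethasone Treh fell by 1.28 on the log2 scale (SE 0.19, n = 2 per group, adjusted p = 0.00332), a 2.43-fold decrease, to 41.0% of the vehicle mean. Its changes with DBZ and the combination were -0.32 ± 0.23 (SE, adjusted p = 0.412) and -0.37 ± 0.19 (adjusted p = 0.267). Without dexamethasone replicate 1, the array with the colon marker, the dexamethasone change of Treh was -1.20 (adjusted p = 0.0297).

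Lct encodes lactase, which splits milk sugar and is known as a gene of the proximal small bowel. Its signals were 7130 and 8186 with vehicle, 5124 and 5288 with dexamethasone, 7643 with DBZ, and 7310 and 7631 in the combination arrays. As for Treh, the dexamethasone pair was the lowest and did not overlap any other group, but here the DBZ and combination arrays lay within the vehicle range. The dexamethasone change was -0.55 ± 0.17 (SE, adjusted p = 0.0676), which did not pass. It passed in 4 of 16 alternatives: with each combination array left out (-0.55, adjusted p = 0.0468 and 0.0472), centred on microvillus genes (-0.61, adjusted p = 0.0304) and on the values as deposited (-1.55, adjusted p = 0.000162). The microvillus centring was added after the values were seen. As deposited, the median over all tested probe sets was -0.92 because of the unequal scaling, so that pass is no evidence of a fall in Lct. With DBZ the change of Lct was 0.00059 ± 0.21 (95% interval -0.47 to 0.47) and with the combination -0.03 ± 0.17 (95% interval -0.42 to 0.35).

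The meprin subunits differed from each other. Meprins are zinc endopeptidases of the brush border, in which alpha and beta subunits pair, and the alpha subunit can be shed. Mep1a had signals of 699 and 608 with vehicle, 3441 and 4515 with dexamethasone, 4812 with DBZ, and 2579 and 2874 in the combination arrays. Every treated array was above both vehicle arrays, the combination arrays were the lowest of the treated ones and the DBZ array the highest. Mep1a rose by 2.86 ± 0.23 with DBZ (SE, 1 array against 2, adjusted p = 0.000384), by 2.57 ± 0.19 with dexamethasone (adjusted p = 0.000124) and by 2.04 ± 0.19 with the combination (adjusted p = 0.000662), which are 7.26-fold, 5.95-fold and 4.12-fold. Centred on the microvillus genes, an alternative added after the values were seen, the rises were 2.46, 2.52 and 1.79.

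Mep1b, the membrane-anchored beta subunit, had signals of 5975 and 5734 with vehicle, 6432 and 7438 with dexamethasone, 7479 with DBZ, and 6490 and 8586 in the combination arrays. All treated arrays were above both vehicle arrays, yet by far less than for Mep1a. The changes were 0.24 ± 0.20, 0.35 ± 0.24 and 0.35 ± 0.20 (SE) with dexamethasone, DBZ and the combination, and none passed (adjusted p = 0.483, 0.382 and 0.304). No test compared the 2 subunits with each other.

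Akp3, known in the mouse as the alkaline phosphatase of the duodenum, had signals of 124 and 457 with vehicle, 1.81 and 21.6 with dexamethasone, 11.7 with DBZ, and 27.0 and 23.6 in the combination arrays. The treated arrays were all below both vehicle arrays, and on the log2 scale the vehicle arrays differed from each other more than for any other member. The changes were -3.53 ± 0.57 with dexamethasone (SE, adjusted p = 0.00507), -3.40 ± 0.70 with DBZ (adjusted p = 0.0211) and -2.75 ± 0.57 with the combination (adjusted p = 0.0209). Since Akp3 passed the filter only through the vehicle arrays, where it is high, these values describe the arrays. With no filter the dexamethasone call held (adjusted p = 0.0163) and those of DBZ (adjusted p = 0.0546) and the combination (adjusted p = 0.0527) ended, and the stricter filter removed the gene. The treated signals lay near the pseudocount of 12.3, so the sizes depend on it: with a pseudocount of 32 the changes were -2.70, -2.66 and -2.27, and with 3.98 they were -4.32, -3.96 and -3.06. Without vehicle replicate 2 the DBZ call ended (-2.51, adjusted p = 0.0622), as did that of the combination (-1.86, adjusted p = 0.108). The combination call also ended without combination replicate 1 (-2.82, adjusted p = 0.117) or 2 (-2.69, adjusted p = 0.130).

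The vehicle array with the higher Akp3 signal also had the higher summed signal of pancreatic acinar markers. The 6 acinar markers with a probe set summed to 710 in vehicle replicate 2, against 250 in vehicle replicate 1 and 196 to 346 in the treated arrays. The signal of colipase (Clps), a cofactor of pancreatic lipase outside this list, was instead higher in vehicle replicate 1. Only 2 of the 6 passed the filter on mean signal, and 0 were called in any comparison. A link to Akp3 was not tested. Among 9 tested proximal markers, 6 fell in DBZ, 5 in dexamethasone and 4 in combination arrays against vehicle, and 2 rose in each comparison. Among 9 tested ileal markers, 6, 5 and 3 rose in the same comparisons, and 1 fell in each. The ileal Fabp6, near 0 with vehicle, passed the filter on mean signal only through the treated arrays. Of all tested probe sets, 4.6%, 4.82% and 3.06% fell and 3.74%, 7.22% and 4.38% rose in these comparisons. The part of tissue position in the changes of Akp3, Mep1a and Treh was not tested.

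**Figure D2:**
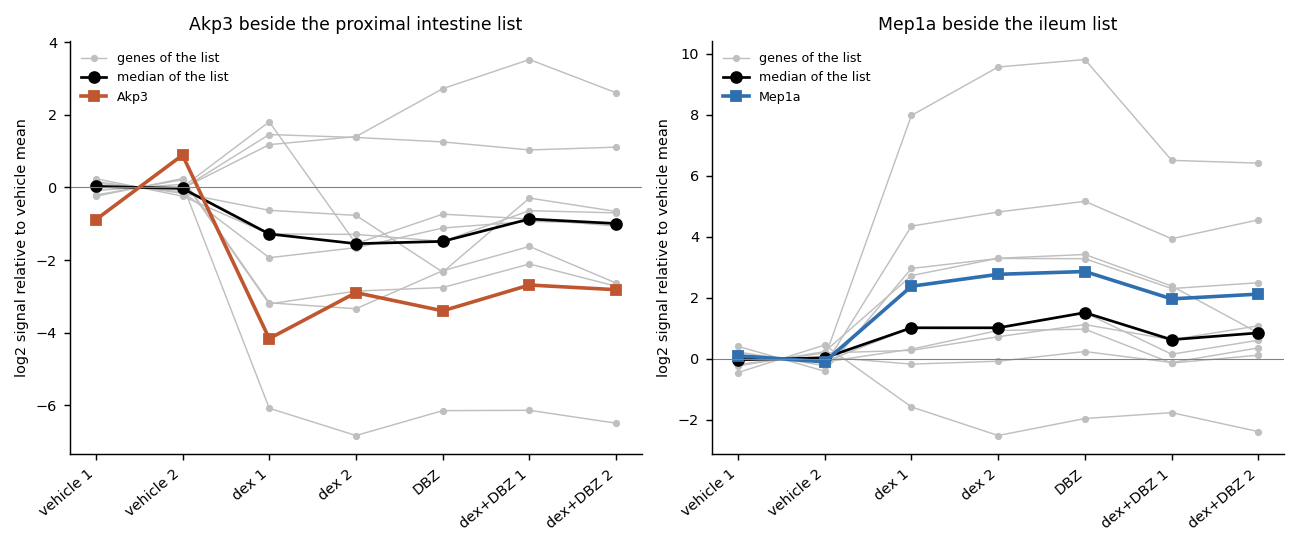
Log2 signal relative to the vehicle mean (y axis) in the 7 arrays (x axis) for Akp3 with the 9 tested proximal markers and for Mep1a with the 9 tested ileal markers; grey lines join the values of 1 marker gene and the black line is the median of the list. The proximal median lies between -1.55 and -0.87 and the ileal median between 0.63 and 1.51 in the treated arrays.

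The exopeptidases Anpep, Dpp4 and Enpep, which trim peptides at their ends, passed in no comparison. Anpep (aminopeptidase N) had signals of 8888 and 7542 with vehicle, 5311 and 6542 with dexamethasone, 7987 with DBZ, and 5509 and 7304 in the combination arrays. The dexamethasone and combination arrays lay below vehicle and the DBZ array between the vehicle arrays. Its changes were -0.47 ± 0.21, -0.04 ± 0.26 and -0.37 ± 0.21 (SE, dexamethasone, DBZ, combination; adjusted p = 0.179, 0.947 and 0.312). Enpep (aminopeptidase A) had 6586 and 6934, 5155 and 6403, 7168, and 6247 and 7599 in the order vehicle, dexamethasone, DBZ and combination. Only the dexamethasone arrays lay wholly below vehicle, and the changes were -0.23 ± 0.19, 0.08 ± 0.23 and 0.03 ± 0.19.

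Dpp4, the dipeptidyl peptidase that cuts dipeptides from the start of peptides, incretin hormones among them, had a pair of probe sets. For the brighter probe set the signals were 4603 and 4239 with vehicle, 4243 and 5648 with dexamethasone, 6921 with DBZ, and 5787 and 6554 in the combination arrays. The DBZ and combination arrays lay above vehicle, and the dexamethasone arrays overlapped it. The changes were 0.15 ± 0.19, 0.65 ± 0.24 and 0.48 ± 0.19 (SE, dexamethasone, DBZ, combination; adjusted p = 0.681, 0.121 and 0.166). For the dimmer probe set the signals were 449 to 732 over all arrays and the changes -0.11 ± 0.20, 0.15 ± 0.24 and 0.24 ± 0.20. Over the 7 arrays the pair had Pearson's r = 0.44.

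Slc5a1 encodes SGLT1, which carries glucose and galactose into the enterocyte together with sodium. Its brighter probe set had signals of 7627 and 9146 with vehicle, 6007 and 7165 with dexamethasone, 7988 with DBZ, and 7206 and 8347 in the combination arrays. Again the dexamethasone arrays were the lowest and lay below vehicle, while DBZ and the combination overlapped it. The changes were -0.35 ± 0.19 (95% interval -0.78 to 0.08), -0.06 ± 0.24 (-0.59 to 0.46) and -0.11 ± 0.19 (-0.54 to 0.32) with dexamethasone, DBZ and the combination. For the dimmer probe set they were -0.31 ± 0.22, 0.27 ± 0.27 and -0.03 ± 0.22. Its signals were 3422 and 5174 with vehicle and 3324 and 3481 with dexamethasone, so these groups overlapped. The pair of probe sets had r = 0.64 over the 7 arrays. None of the changes passed.

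Counted over the members, limma called 3 of 11 probe sets in dexamethasone against vehicle (1 higher and 2 lower), where 12% of all tested probe sets were called, 7.22% higher and 4.82% lower. It called 2 of 11 in DBZ against vehicle (1 higher and 1 lower), against 8.34% of all, 3.74% higher and 4.6% lower. In the combination against vehicle it called 2 of 11 (1 higher and 1 lower), against 7.44% of all, 4.38% higher and 3.06% lower. On the values as deposited, whose vehicle arrays have the higher trimmed mean, it called 1 member higher in each comparison and 9 to 10 lower. The groups did not overlap for 9 of 11 members in dexamethasone against vehicle, 7 of them lower, where 56.2% of all probe sets did not overlap and 26.7% were lower. The median member change with dexamethasone was -0.31, against 0.02 over all tested probe sets. With DBZ it was 0.08 against -0.05, and with the combination -0.03 against -0.04. The 3 comparisons share the vehicle arrays. These counts include Akp3, which the filter kept through its vehicle signal. Of the 10 other probe sets, 2 were called with dexamethasone, 1 with DBZ and 1 with the combination, and the medians were -0.27, 0.12 and 0.0008. Dexamethasone and vehicle did not overlap for 8 of these 10, 6 of them lower.

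**Figure D3:**
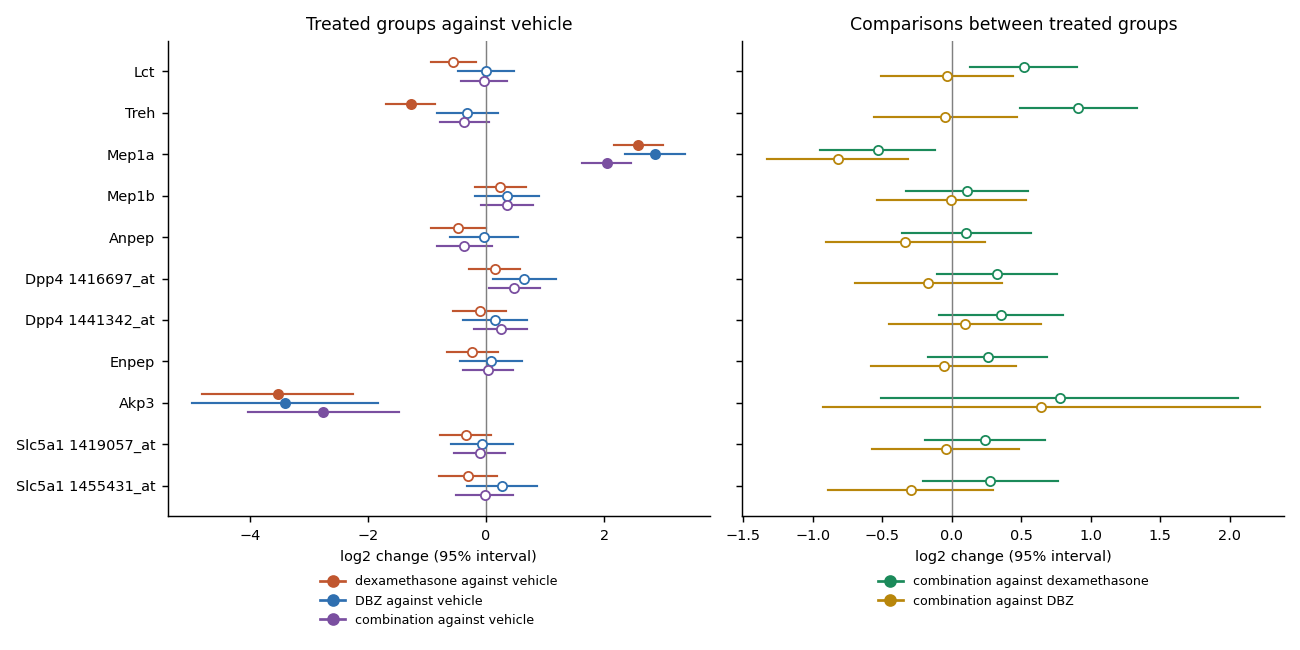
Log2 change with its 95% interval (x axis) for each member probe set, for the treated groups against vehicle (left) and the combination against each single agent (right). Filled points passed an adjusted p of 0.05; on the left these are Mep1a and Akp3 in 3 comparisons and Treh with dexamethasone, and on the right there are none. Akp3 passed the filter on mean signal only through the vehicle arrays, and without that filter only its dexamethasone call held.

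The comparisons between treated groups use no vehicle mean, although the vehicle arrays add to the spread in the fit. Limma called 0 of 11 members when DBZ was added to dexamethasone (combination against dexamethasone), where 0.0293% of all probe sets were called. At an unadjusted p under 0.05 there were 3 of 11 members, and 1277 of all 13638 tested probe sets. Treh had a change of 0.91 ± 0.19 (SE, 95% interval 0.49 to 1.33, adjusted p = 0.188) and Lct of 0.52 ± 0.17 (0.13 to 0.91, adjusted p = 0.404). For both genes each combination array was above each dexamethasone array. Mep1a had -0.53 ± 0.19 (-0.95 to -0.12, adjusted p = 0.426), with both combination arrays below both dexamethasone arrays. In all, 10 of 11 members were higher in the combination than with dexamethasone, but Mep1b and Anpep turned lower under quantile normalisation (-0.03 and -0.04). The median was 0.28 against -0.06 over all tested probe sets. The groups did not overlap for 8 of 11 members, 7 of them higher, where 43.7% of all did not overlap and 16.9% were higher. These counts include Akp3, whose signals in both groups lay below the filter on mean signal. Of the 10 other probe sets, 9 were higher, with a median of 0.27. For 7 of the 10 the groups did not overlap, 6 of them higher.

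Dexamethasone added to DBZ (combination against DBZ) gave 0 called members as well, where 0.33% of all probe sets were called. At an unadjusted p under 0.05 there was 1 of 11 members, and 1681 of all 13638 tested probe sets. Mep1a had the change farthest from 0, -0.82 ± 0.23 (SE, 95% interval -1.33 to -0.31, adjusted p = 0.186). Lct (-0.03, 95% interval -0.51 to 0.44), Treh (-0.05, -0.56 to 0.47) and Mep1b (-0.0027, -0.54 to 0.53) lay close to 0. A fit of the treated arrays alone, added after the values were seen, also called 0 members in both comparisons, while its calls over all probe sets went from 4 to 17 against dexamethasone and from 45 to 22 against DBZ.

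The interaction asks whether the effect of dexamethasone differed between mice with and without DBZ. Limma called 2 of 11 members, against 4% of all tested probe sets. Mep1a had -3.39 ± 0.29 (SE, adjusted p = 0.000843), since it rose with either agent over vehicle while its signals with both agents lay below those with either alone. Akp3 had 4.18 ± 0.91 (adjusted p = 0.0368), and its call ended under 6 alternatives, among them no filter (adjusted p = 0.0876). Its DBZ signal of 11.7 already lay under the pseudocount of 12.3, which left little room for a further fall with dexamethasone. The interaction value of Akp3 therefore does not show that the effect differed. Without Akp3, 1 of 10 members was called. Treh had 1.23 ± 0.30 and did not pass (adjusted p = 0.0514), but passed with quantile normalisation (adjusted p = 0.0449) and with the stricter filter (adjusted p = 0.0425). It also passed centred on microvillus genes (adjusted p = 0.0213), a setting added after the values were seen. On the values as deposited it passed as well (adjusted p = 0.00163), but there the unequal scaling moved the median over all tested probe sets to 0.94. The interaction uses the vehicle arrays, which stood apart in position markers. Of 9 tested ileal markers, 6 were called below 0 and 0 above (median -2.15), with Fabp6 tested only through its treated signals. Of 9 tested proximal markers, 6 were called above 0 and 1 below (median 2.10). Smooth muscle markers had a median of -1.67 and enterocyte markers of 0.40, against 0.002 over all tested probe sets. The part of position or cell types in the interactions of Mep1a and Treh was not tested.

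Some other genes of sugar digestion and transport fell with dexamethasone. Of 8 tested genes of this list 3 fell and 0 rose, where 4.82% of all tested probe sets fell; 6 had a change below 0 and 2 above. The median was -0.59, against 0.02 over all tested probe sets and -0.46 over the enterocyte markers, while 0 were called with DBZ (median -0.08) or the combination (median -0.04). Slc5a4a, a relative of SGLT1, fell by 1.13 ± 0.18 (SE, adjusted p = 0.00442), with signals of 1904 and 2169 with vehicle and 848 and 1004 with dexamethasone. Slc37a4, the glucose-6-phosphate transporter, fell by 0.96 ± 0.18 (adjusted p = 0.00845), and Slc2a2, which encodes GLUT2, the exit route for glucose, fell by 0.98 ± 0.20 (adjusted p = 0.0123). Slc2a2 also had -0.84 with DBZ in the single array. Slc5a4b had 1.03 in the combination against dexamethasone (adjusted p = 0.200), where 7 of 8 genes of the list were higher.

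**Figure D4:**
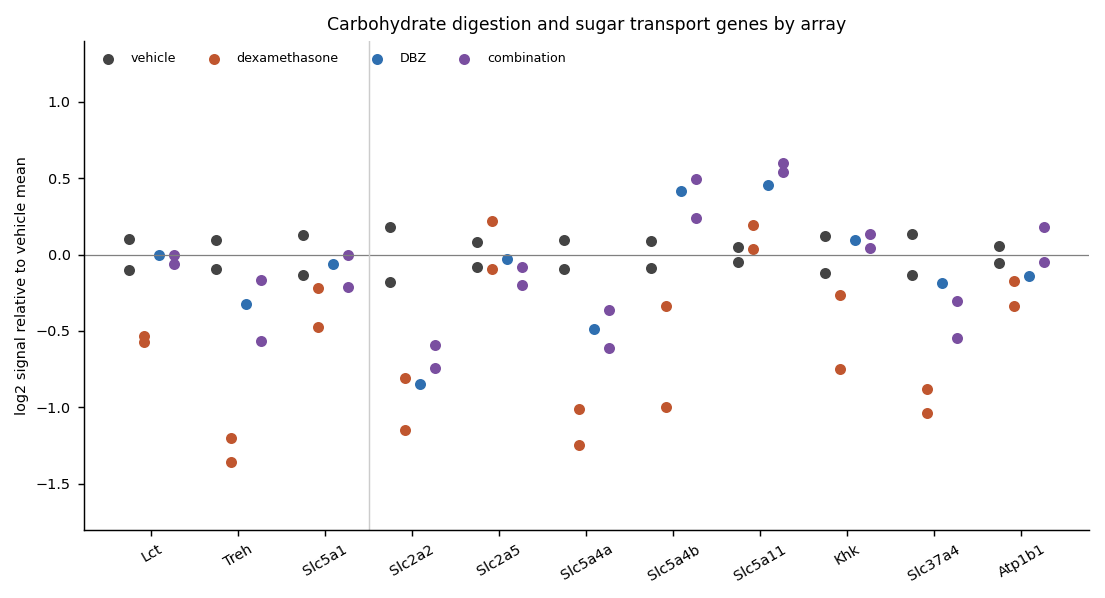
Log2 signal relative to the vehicle mean (y axis) of Lct, Treh and Slc5a1 (left of the line, probe set with the highest mean signal) and the 8 other tested genes of sugar digestion and transport (right), each point an array coloured by group. Both dexamethasone arrays lie below all other arrays for Lct, Treh and Slc5a1 and for 5 of the 8 other genes. The share of all probe sets with this pattern was not counted. In the dimmer Slc5a1 probe set, not drawn here, a dexamethasone array (3481) lay above a vehicle array (3422).

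Other brush border peptidases went both ways. Of 5 tested, Xpnpep2 (aminopeptidase P) rose with dexamethasone (1.96 ± 0.28, SE), DBZ (2.24 ± 0.35) and the combination (2.11 ± 0.28), and the dipeptidase Dpep1 rose in the same 3 comparisons (0.81 ± 0.17, 1.01 ± 0.20 and 1.05 ± 0.17). The angiotensin-converting enzyme Ace (-0.99 ± 0.17) and neprilysin (Mme, -0.99 ± 0.26) fell with dexamethasone. Ace and Mme passed the interaction test at 1.19 ± 0.27 and 1.83 ± 0.41, and Xpnpep2 at -2.09 ± 0.45, where 4% of all tested probe sets passed. Proximal and ileal markers also moved in the interaction, and the part of tissue position was not tested. In the list of other phosphatases and lipid or nucleotide hydrolases, 5 were tested. Colipase (Clps), which is no hydrolase but a secreted cofactor of pancreatic lipase, fell with DBZ (-1.66 ± 0.31). Its signals were 834 and 597 with vehicle, 525 and 876 with dexamethasone, 215 with DBZ, and 391 and 452 in the combination arrays. The part of pancreatic RNA was not tested. Enpp3 fell with dexamethasone (-1.02 ± 0.28), the 5'-nucleotidase Nt5e rose with the combination (1.44 ± 0.27), and the ceramidase Asah2 passed in none (0.68 in the combination against dexamethasone, adjusted p = 0.230). Of 9 tested genes of microvillus structure, the scaffold protein Ush1c rose with DBZ (0.94 ± 0.19), dexamethasone (0.57 ± 0.15) and the combination (0.60 ± 0.15), the actin bundler Espn rose with DBZ (1.33 ± 0.29), and 0 fell in any comparison. Beside these lists, 3.74%, 7.22% and 4.38% of all tested probe sets rose with DBZ, dexamethasone and the combination, and 4.6%, 4.82% and 3.06% fell.

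Some transcription factors of enterocytes fell in the treated arrays, while others had changes above 0. Against vehicle, 4 of 10 tested fell in DBZ arrays, 4 in dexamethasone arrays and 3 in combination arrays, and 0 rose, where 4.6%, 4.82% and 3.06% of all tested probe sets fell. In each of the 3 comparisons 5 factors had a change above 0 and 5 below, with medians of -0.03, -0.09 and -0.0037. Gata6 fell by 1.98 ± 0.20 with DBZ, by 1.13 ± 0.16 with dexamethasone and by 0.71 ± 0.16 with the combination (SE), and was higher in the combination than with DBZ (1.27 ± 0.20, adjusted p = 0.0473). Gata4, which also stands on the proximal list, fell by 1.49 ± 0.25 with DBZ and by 1.29 ± 0.20 with dexamethasone. Hnf4g fell by 2.17 ± 0.25 with dexamethasone and by 2.0 ± 0.31 with DBZ, and Cdx2 fell by 1.16 ± 0.19 and 1.02 ± 0.24. GATAA stood in the windows of Lct, Mep1a, Dpp4 and Enpep, and a link between this motif and the changes was not tested.

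For each member the genes most alike over the 7 arrays were found by Pearson's r of log2 values among 12550 probe sets of named genes outside the list. Mep1a was most like the ileal Fabp6 (r = 0.996) and Hoxc8 (0.995), and Akp3 was most like Slc2a2 (0.990) and Fgfr1op2 (0.987). Treh was most like Trmt1l (0.996) and Rmdn3 (0.992), and Lct most like Cep85 (0.994) and Cyb5r3 (0.967). For Mep1b they were Cldn7 (0.994) and Fcgbp (0.975), for Anpep Rps20 (0.975) and Cd8a (0.968), and for Dpp4 Mvb12a (0.977) and C1qtnf12 (0.973). For Enpep they were Erlec1 (0.989) and Mff (0.982), and for Slc5a1 Mdh2 (0.964) and Rnf128 (0.964). The arrays fall into 4 groups that all these genes share, so the values describe the pattern only.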

How the data were processed

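The deposited table holds intensity values, MAS5 signals per probe set made by the authors, per the submitters' processing notes; the MAS5 version, detection calls and scaling targets are not given in the sources used here. It has 8 sample columns, and 0 were left unused. The 64 Affymetrix controls were left out, as was any probe set whose mean signal did not reach 38.8 (percentile 40 of all values). Arrays were scaled to a trimmed mean of 250 (2% trimmed at each end), and the pseudocount of 12.3 is the 20th percentile of all values. Group means were fitted in limma 3.58.1 (R 4.3.3) with an intensity trend, 2-sided moderated tests and Benjamini-Hochberg adjustment over 13638 probe sets; residual degrees of freedom were 3 and prior ones 6.83. The planned pair of DBZ arrays was used as 1, whose spread is taken to equal that of the rest. The platform annotation names 1 gene for 20393 probe sets, more than 1 for 691 and no gene for 1606. The fit was tested on simulated data. The number of arrays limits the precision.

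Every member probe set is named, and up to 4 genes of each of 5 lists of related genes by smallest p in any comparison; for list genes with several probe sets, the one with the highest mean signal was used. Marker lists were 10. The members and lists were chosen with earlier results of these data known. Alternatives were quantile normalisation or no scaling, a pseudocount of 3.98 or 32, no filter or one at percentile 60, no intensity trend, the replicate number as a block, and leaving out single arrays; 2 more were added after the values were seen.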

Additional observations from a re-analysis of the deposited data

Results flagged for a closer look

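The interaction, the difference between the effect of dexamethasone without and with DBZ, passed the test for 2 members. For Mep1a the interaction was -3.39 (adjusted p = 0.000843): dexamethasone gave 2.57 over vehicle but -0.82 over DBZ, and it stayed past the threshold in the 15 alternatives that could be fitted, from -3.59 to -2.40. For Akp3 it was 4.18 (adjusted p = 0.0368): dexamethasone gave -3.53 over vehicle and 0.65 over DBZ, and 8 of 14 alternatives passed, from 3.09 to 5.22. With the DBZ signal of Akp3 (11.7) under the pseudocount, and the filter passed only through vehicle, this value does not show that the effect differed. Both values rest on the single DBZ array and on the vehicle arrays. The ileal markers had a median interaction of -2.15 and the proximal markers of 2.10, and the part of tissue position was not tested.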

How the results depend on the processing

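Mep1a kept its direction and its side of the threshold in all 6 comparisons under every alternative run, and Treh with dexamethasone stayed called in each, from -2.28 to -1.18. The number of arrays, with 1 for DBZ, limits these results, and the cause of the shifts below was not tested unless named. On the values as deposited, with medians over all probe sets of -0.997, -0.92 and -0.985 against vehicle, 10, 11 and 11 members were called with DBZ, dexamethasone and the combination, and 9 in the interaction, since the vehicle arrays then keep their higher trimmed mean. Without the filter, 1 member was called with DBZ, 1 with the combination and 1 in the interaction (Akp3 lost). With the stricter filter, which removes Akp3, 1 was called with DBZ and 1 with the combination, and without the trend 1 in the interaction. With single arrays left out, 1 to 2 members were called with DBZ, 3 to 4 with dexamethasone, 1 to 2 with the combination, and 1 to 2 in the interaction. Over all probe sets, no filter gave 538, 1082, 623 and 233 calls (DBZ, dexamethasone, combination, interaction) in place of 1137, 1642, 1015 and 545.

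Signs turned as follows. As deposited, with DBZ: Dpp4 -0.35 and -0.83, Mep1b -0.65, Lct -0.998, Enpep -0.91 and Slc5a1 -0.73; with the combination: Dpp4 -0.52 and -0.74, Mep1b -0.65 and Enpep -0.97; with dexamethasone: Dpp4 -0.85 and Mep1b -0.76; in the interaction: Dpp4 0.68 and Mep1b 0.76. With quantile normalisation, Lct was -0.023 with DBZ and 0.023 with the combination; combination against DBZ gave Mep1b 0.047, Slc5a1 0.0039, Lct 0.046 and Treh 0.022; combination against dexamethasone gave Mep1b -0.026 and Anpep -0.045; and the interaction gave Slc5a1 -0.027. Centred on microvillus genes (added after the values were seen; medians of all probe sets -0.45, -0.03 and -0.29 with DBZ, dexamethasone and the combination), DBZ gave Mep1b -0.044, Lct -0.40, Dpp4 -0.25, Enpep -0.31 and Slc5a1 -0.13, and the combination Dpp4 -0.0078 and Enpep -0.22. There, combination against DBZ gave Mep1b 0.14, Slc5a1 0.10, Lct 0.11, Enpep 0.088 and Treh 0.10, and combination against dexamethasone Mep1b -0.088 and Anpep -0.092. Treh with DBZ (-0.72), Anpep with the combination (-0.62), Lct with dexamethasone (-0.61) and Treh in the interaction (1.43) passed there.

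Leaving out single arrays, with DBZ the range was -0.15 to 0.083 for Anpep, -0.10 to 0.10 for Lct, and -0.028 to 0.57 and -0.19 to 0.067 for Slc5a1. With the combination it was -0.11 to 0.17 for Enpep, -0.24 to 0.024 and -0.32 to 0.27 for Slc5a1, -0.13 to 0.067 for Lct and -0.010 to 0.50 for Dpp4, and with dexamethasone -0.058 to 0.35 for Dpp4. For combination against DBZ it was -0.20 to 0.20 for Mep1b, -0.15 to 0.063 for Slc5a1, -0.16 to 0.35 for Dpp4, -0.20 to 0.084 for Enpep and -0.25 to 0.16 for Treh. For combination against dexamethasone it was -0.10 to 0.31 for Anpep and -0.09 to 0.31 for Mep1b, and for the interaction -0.29 to 0.31 for Slc5a1, -0.062 to 0.34 for Anpep and -0.048 to 0.46 for Dpp4.

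Differences between the replicates of a group correlated at 0.05 (vehicle and dexamethasone), -0.12 (vehicle and combination) and 0.11 (dexamethasone and combination). DBZ, with a single array, could not enter, so this cannot show whether arrays of the same replicate number were handled together. With the replicate block the members called were 2, 3, 2 and 2 (DBZ, dexamethasone, combination, interaction), the same counts, and 975, 1492, 891 and 495 over all probe sets.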
